A study of Homo sapiens with 4 samples.

Results

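The genes examined were those whose symbol in the gene label of a crosslink site began with PSMA, PSMB, PSMC, PSMD or PSME and a digit, symbols of pseudogenes being left out. This rule found 46 of the 14416 labelled genes, with 374 of 158922 sites in the PDCD4 list and 228 of 111361 sites in the IgG list. Of the 43 subunits and assembly chaperones that carry such symbols, 40 had a site, and PSMA8 (the testis form of an α subunit), PSMB8 and PSMB11 (the thymus form of a catalytic subunit) had none in either list. The other 6 genes matched the rule by symbol only. They were PSMA3-AS1, PSMB8-AS1, PSMD5-AS1, PSMD6-AS1 and PSMD6-AS2, whose symbols are those of antisense RNAs, and PSMC3IP, which encodes a protein of meiotic recombination.

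In iCLIP, UV light joins RNA to the proteins that touch it, the protein of interest is immunoprecipitated, and the ends of the cDNAs mark the crosslinked nucleotides. The samples were wild-type (WT) MCF10A cells, an established non-transformed line of human breast epithelium, grown in serum with epidermal growth factor, hydrocortisone, cholera toxin and insulin. Antibody against PDCD4, a tumour suppressor that binds RNA, was used in 2 replicates, and isotype control IgG in the other 2, to find which RNAs PDCD4 contacts beyond the background of the procedure. The authors pooled the replicates of each immunoprecipitation in 1 list of sites 1 nt wide, where the score of a site is its number of cDNAs. All groups were the same line, with no gene altered and no agent that differed between them. Without values per replicate there was no spread between replicates and no test between PDCD4 and IgG, and the 95% intervals below cover counting error only. RNA abundance was not analysed here, so more contacts per RNA and more copies of an RNA (or more cells that hold it) cannot be told apart. All 11 epithelial markers examined had PDCD4 sites, from 3 cDNAs in KRT14 to 808 in KRT7. Markers of leukocytes, endothelium, fibroblasts and hepatocytes had no site, and ESR1, the oestrogen receptor, had 1.

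The proteasome degrades proteins tagged with ubiquitin. Its 20S core is a barrel of stacked rings, in which α subunits (PSMA) form the gated outer rings and β subunits (PSMB) the inner rings that hold the proteolytic sites. The 19S particle caps the barrel: a ring of ATPases (PSMC) unfolds the substrate, and non-ATPase subunits (PSMD) bind and remove the ubiquitin. Other activators (PSME) open the gate without ubiquitin, and in cells exposed to interferon the immunoproteasome subunits PSMB8, PSMB9 and PSMB10 replace the constitutive catalytic subunits PSMB5, PSMB6 and PSMB7.

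The sites with the highest scores show what a crosslink in these RNAs looked like. The sequences below hold 15 nt before and 14 nt after the highest PDCD4 site of 5 genes, written 5′ to 3′ on the strand of the gene as DNA of GRCh38, and the capital marks the crosslinked nucleotide.
PSMB6: tgacgggggcgtggtTctgggggcggactc
PSMA7: aagtttttttctataGattttaaatcctga
PSMB2: gccagcgctgtattaCatggactacctggc
PSME3: ttcctcacatgaggtTactgtttctttcct
PSME4: atagggttactaaatAtcttttttttggaa
The PSMB6 site (chr17:4796751-4796780, plus strand) had 6 cDNAs and lay in the coding sequence, 38 nt after the start of exon 2. The PSMA7 site (chr20:62136936-62136965, minus strand) had 5 cDNAs at the last nucleotide of the intron before exon 7, so that the capital is the G of the AG that ends the intron. Whether these cDNAs came from spliced or unspliced RNA was not tested. The PSMB2 site (chr1:35609329-35609358, minus strand) had 5 cDNAs in the coding part of exon 4. The PSME3 site (chr17:42842014-42842043, plus strand) and the PSME4 site (chr2:53914877-53914906, minus strand) also had 5 cDNAs each, the first within the 3′UTR and the second within an intron. The windows differed in their T content, from 20% in PSMB6 to 50% in PSMA7. Over all sites of the 46 genes, the crosslinked base was a T at 48.7% of PDCD4 sites and 46.5% of IgG sites, against 46.7% and 51.6% of all sites of these lists. The 30 nt after the site occurred elsewhere in the genome for 25 of the 374 PDCD4 sites and 13 of the 228 IgG sites, and for none of the PSMA7 sites.

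Scores of single sites in proteasome genes were low. The highest was 6 in either list, against 87 for any PDCD4 site and 22 for any IgG site. A score greater than 5, the threshold of the methods, was reached by 1 PDCD4 site, that in PSMB6, which is 0.267% of the genes' sites against 1.48% of all PDCD4 sites. In the IgG list it was reached by 1 site, in the coding sequence of PSMD8, or 0.439% against 0.69% of all IgG sites. The mean score of the genes' sites was 2.39 with PDCD4 and 2.44 with IgG, so the genes are described below by their summed scores at all listed sites.

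Taken as a whole, proteasome genes gave about as much crosslink signal with PDCD4 antibody as with IgG. Their sites held 895 of 409308 cDNAs of the PDCD4 list, or 21.9 per 10000, and 557 of 276139 cDNAs of the IgG list, or 20.2 per 10000. The log2 ratio of PDCD4 to IgG over the summed cDNAs was 0.12 (−0.03 to 0.28), where 1 site labelled with a pair of the genes counts in each. The median log2 ratio of the single genes was 0.08 with 1 cDNA added to each sum, and that of all 14416 genes −0.07. With a floor of 3 cDNAs in place of sums at 0, these medians were −0.17 and −0.19. Sites in both lists were found for 38 of the 46 genes, in the PDCD4 list alone for 7 and in the IgG list alone for 1, PSMD6-AS1.

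At least 20 cDNAs over both lists were present for 27 of the 46 genes, and only these were called for a 2-fold ratio. PDCD4 was at least 2-fold over IgG in 5 of the 27 (18.5%), against a background of 16.4% of the 7305 genes of this depth. It was at least 2-fold under IgG in 1 of the 27 (3.7%), against 16.1% of all such genes. The 5 were PSMA7, PSMB5, PSMA1, PSMA4 and PSMB1, all of the 20S core, and the 1 was PSMA3-AS1. The counting interval lay above 0 for 4 of the 27 genes, below 0 for 3, and held 0 for 20. Over all genes of this depth it lay above 0 for 20.1% and below 0 for 23.8%.

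**Figure D1:**
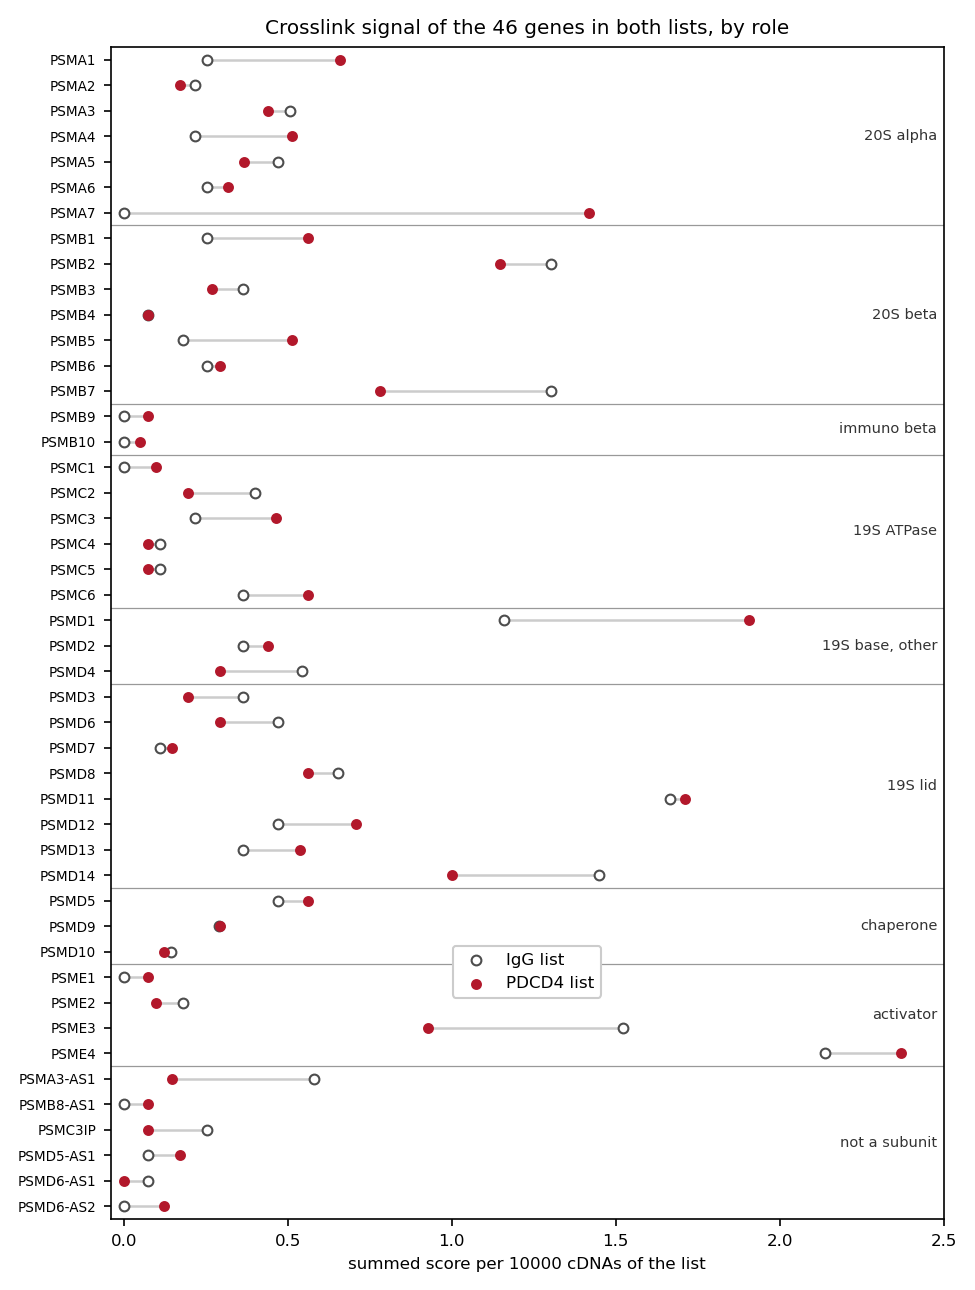
Summed score per 10000 cDNAs of the PDCD4 list (filled) and of the IgG list (open circles) for each of the 46 genes, ordered by role, with no error bars since each list is 1 pool. The points of most genes lie close together, and PSMA7 has 1.42 per 10000 in the PDCD4 list with no site in the IgG list.

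The α subunits of the 20S core were the only role group whose interval lay above 0. They held 159 PDCD4 cDNAs and 53 IgG cDNAs, a log2 ratio of 1.02 (0.56 to 1.49). Without PSMA7 the values were 101 and 53, a log2 ratio of 0.36 (−0.13 to 0.87), so the difference of the group rested on this gene. PSMA7 encodes the α4 subunit. It had 25 PDCD4 sites with 58 cDNAs and no site in the IgG list. A log2 ratio with 1 cDNA added came to 5.31, rank 10 of 7305 genes, and to 3.09 with 5 cDNAs added. It depends on the added number. The counting interval of the sums had a lower bound of 3.36 and no upper bound. This bound takes no account of sites below the authors' filter, which are not listed. Having no IgG site was uncommon at this depth: it was found for 1 of the 27 proteasome genes (3.7%) against 1.51% of all such genes, and 10 genes without an IgG site, PSMA7 included, had 58 or more PDCD4 cDNAs.

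The PSMA7 sites lay close together near the end of the gene (chr20:62136733-62143440). Exon 7, the last, held 18 of the 25 sites and 39 of the 58 cDNAs. At its upstream edge, 7 sites with 16 cDNAs spanned the last nucleotides of the intron and the first 5 nt of the exon (chr20:62136945-62136953), among them the site printed above. In the 3′UTR, 7 further sites with 13 cDNAs fell in a stretch of the same exon (chr20:62136829-62136843). By region, PSMA7 had 14 sites in its coding sequence, 4 in introns and 7 in the 3′UTR, with scores from 1 to 5. Per length of its mRNA, PSMA7 had 46.8 PDCD4 cDNAs per kb, the highest level of the 46 genes on this scale, and PSMB5 came next with 18.2.

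The other α genes differed less. PSMA1 (α6) had 27 PDCD4 cDNAs at 12 sites and 7 IgG cDNAs at 3 sites, a log2 ratio of 1.24 (0.14 to 2.82). PSMA4 (α3) had 21 and 6 cDNAs, and its interval of −0.12 to 2.84 around a ratio of 1.08 held 0. In both genes the PDCD4 sites were mostly in the last exon, 8 of 12 in PSMA1 and 7 of 8 in PSMA4. This was common among the subunits and chaperones. Of their sites in exons of the reference transcripts, the last exon held 118 of 214 with PDCD4 (55.1%) and 53 of 87 with IgG (60.9%). The remaining PSMA2, PSMA3, PSMA5 and PSMA6 had between 7 and 18 PDCD4 cDNAs and between 6 and 14 IgG cDNAs, with intervals that held 0.

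The constitutive β subunits held 149 PDCD4 and 103 IgG cDNAs, a log2 ratio of −0.04 (−0.41 to 0.34), with single genes on either side. PSMB5, which carries the chymotrypsin-like activity, had 21 PDCD4 cDNAs at 10 sites and 5 IgG cDNAs at 1 site, a log2 ratio of 1.31 (0.06 to 3.27). The IgG site lay outside the exons of the MANE Select mRNA, the reference transcript of the gene. PSMB1 had 23 and 7 cDNAs, a log2 ratio of 1.02 whose interval reached −0.12. PSMB7, which carries the trypsin-like activity, went the other way with 32 and 36 cDNAs and a log2 ratio of −0.73 (−1.47 to −0.01). All 36 IgG cDNAs of PSMB7 were intronic, as were 24 of the PDCD4 cDNAs, and its 8 coding cDNAs were all in the PDCD4 list. PSMB2 had 47 and 36 cDNAs, and PSMB6, which carries the caspase-like activity, 12 and 7.

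Immunoproteasome subunits gave almost no signal. PSMB9, the counterpart of PSMB6, had 1 PDCD4 site of 3 cDNAs, which shared its label with PSMB8-AS1, and PSMB10, the counterpart of PSMB7, had 1 of 2 cDNAs. Neither had an IgG site, and PSMB8, the counterpart of PSMB5, had no site in either list. At this depth no difference between PDCD4 and IgG was detectable for these genes.

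Within the 19S particle, the sums of the role groups stayed within counting error of an equal share. The 6 ATPases held 60 PDCD4 and 33 IgG cDNAs (log2 ratio 0.29, −0.34 to 0.95), led by PSMC6 with 23 and 10. The other base subunits PSMD1, PSMD2 and PSMD4 held 108 and 57 (0.35, −0.12 to 0.84), and the 8 lid subunits 211 and 153 (−0.10, −0.41 to 0.21). PSMD1, a large scaffold of the base, had 78 PDCD4 cDNAs at 35 sites and 32 IgG cDNAs at 14 sites, a log2 ratio of 0.69 (0.11 to 1.36). The difference was in its exons, with 43 against 5 cDNAs (2.31), whereas its introns had 35 against 27 (−0.21). PSMD4, a ubiquitin receptor, had 12 and 15 cDNAs, a log2 ratio of −0.87 whose interval of −2.12 to 0.30 held 0.

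In the lid, PSMD11 had 70 PDCD4 cDNAs at 34 sites and 46 IgG cDNAs at 18 sites, a log2 ratio of 0.03 (−0.52 to 0.61). Its 3′UTR held 25 of the PDCD4 sites and 11 of the IgG sites, and 3 of the 25 were within 10 nt of an IgG site of the same 3′UTR. PSMD14, the deubiquitinating enzyme of the lid, had 41 and 40 cDNAs, mostly in introns (27 and 35), and no coding site in either list. PSMD12 had 29 and 13 cDNAs (0.53, −0.40 to 1.66), and PSMD6 12 and 13. The base assembly chaperones PSMD5, PSMD9 and PSMD10 held 40 and 25 cDNAs together, a log2 ratio of 0.11 (−0.65 to 0.89).

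Among the activators, PSME4 (PA200) had the largest sums of the 46 genes, with 97 PDCD4 cDNAs at 40 sites and 59 IgG cDNAs at 24 sites, but its long mRNA held only 4.41 and 2.9 cDNAs per kb. Its log2 ratio was 0.14 (−0.33 to 0.64), and 27 of the 40 PDCD4 sites were intronic. PSME3 (PA28γ), the nuclear activator, had 38 PDCD4 cDNAs at 14 sites and 42 IgG cDNAs at 18 sites, a log2 ratio of −0.71 (−1.38 to −0.04). Almost all its sites were in the 3′UTR, 12 with PDCD4 and 17 with IgG, and 1 of the 12 was within 10 nt of an IgG site. The activators together held 142 and 106 cDNAs, −0.15 (−0.52 to 0.23). Per the methods, IgG crosslink sites had been subtracted ahead of peak calling, yet 721 positions stood in both lists, 2 of them in proteasome genes.

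**Figure D2:**
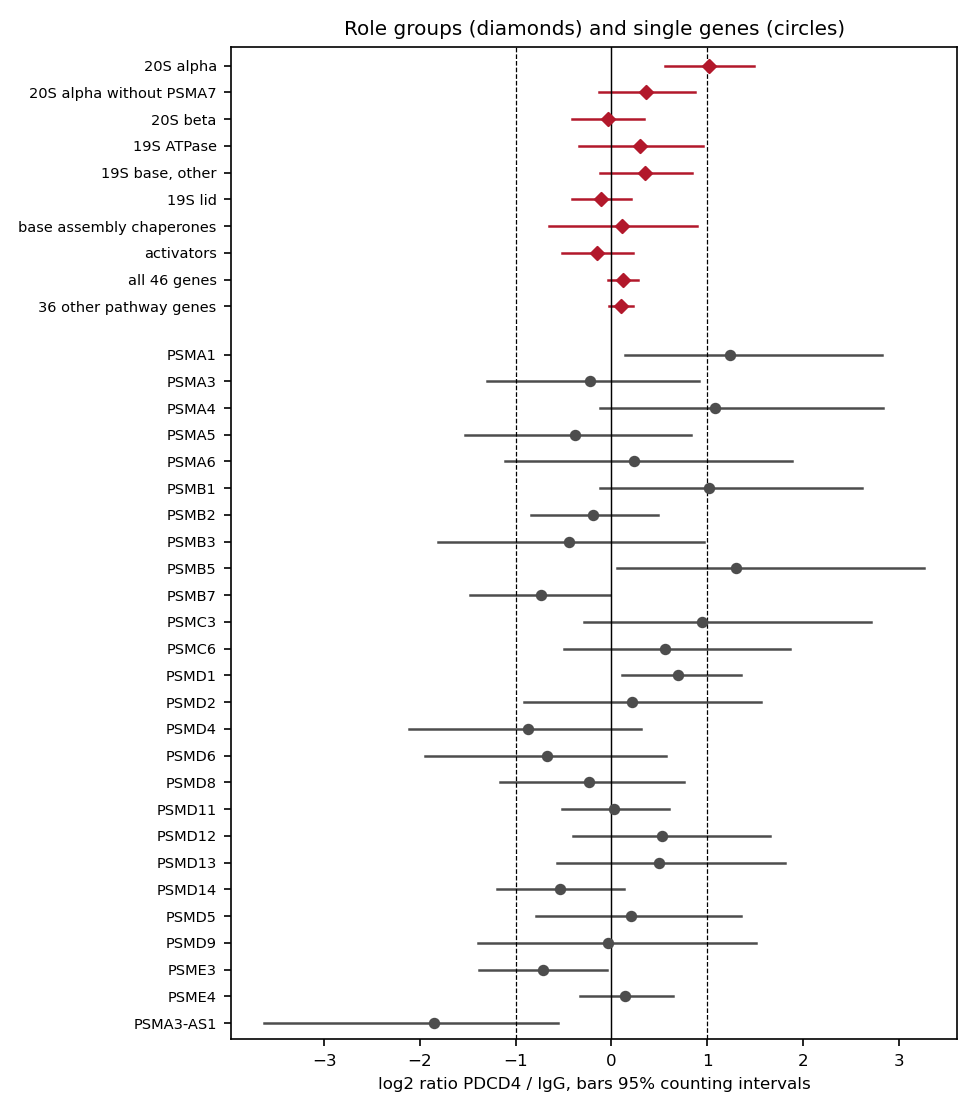
Log2 ratios of PDCD4 to IgG for the role groups (diamonds, summed cDNAs) and for the single genes with at least 20 cDNAs and an IgG site (circles, 1 cDNA added to each sum), with bars for 95% counting intervals of the sums themselves and dashed lines at a 2-fold ratio. Most bars cross 0; the α subunits (1.02) do not, and they do without PSMA7 (0.36).

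Of the genes that are not subunits, PSMA3-AS1 had the most signal, with 6 PDCD4 cDNAs at 2 sites and 16 IgG cDNAs at 5 sites. Its log2 ratio of −1.85 (−3.62 to −0.55) was the lowest of the 27 genes called, but all 7 sites also carried the label of C14orf37, so that no cDNA was assigned to PSMA3-AS1 alone. The other 5 had at most 7 cDNAs in a list.

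The crosslink signal of the proteasome genes was set beside that of 36 other genes of the pathway and of 4 families of abundant housekeeping genes. All 36 pathway genes had a site, and together they held 1410 PDCD4 and 886 IgG cDNAs, a log2 ratio of 0.10 (−0.02 to 0.23), with a median of 0.06. Of the 27 pathway genes with at least 20 cDNAs, 3 were at least 2-fold higher with PDCD4 and 1 was at least 2-fold lower, both below the shares of 16.4% and 16.1% of all genes of this depth. The 3 were ADRM1, a ubiquitin receptor of the 19S base, with 45 PDCD4 cDNAs and no IgG site, VCP, an ATPase that unfolds ubiquitylated proteins, with 73 and 15 (1.64), and UBQLN4, a shuttle of ubiquitylated proteins, with 36 and 10 (1.18). RAD23B, another shuttle, was lower with 27 and 58 (−1.64). The transcription factor NFE2L1, which drives proteasome genes when proteasomes are short, had 81 and 33 cDNAs (0.70, 0.13 to 1.36).

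Beside the median of 0.08 of the proteasome genes, the median log2 ratio was 0.94 over 79 ribosomal protein genes, 0.82 over 18 aminoacyl-tRNA synthetases and 1.04 over the 8 CCT chaperonin genes. Over genes with at least 20 cDNAs the medians were 0.14 for the proteasome genes, 1.05 for the ribosomal protein genes, 0.65 for the synthetases and 1.04 for CCT. The order against the EIF3 subunits depended on depth, with 0.75 over all 13 of them, 0.43 with the floor of 3 cDNAs and 0.00 over the 9 with at least 20 cDNAs. Over coding cDNAs alone, the log2 ratio of the sums was 1.12 for the proteasome genes (0.78 to 1.47), 1.46 for the ribosomal protein genes (1.30 to 1.62), 1.75 for the synthetases (1.42 to 2.09), 1.28 for EIF3 (0.92 to 1.64) and 1.49 for CCT (0.99 to 2.03). On that measure the interval of the proteasome genes overlapped those of each of the 4 families. Without PSMA7 the proteasome value was 0.95 (0.61 to 1.31), and its interval no longer overlapped that of the synthetases. Over all cDNAs, the log2 ratio of the sums was 0.12 for the proteasome genes (−0.03 to 0.28) and 0.38 for EIF3 (0.20 to 0.57), with overlap. Without overlap, it was 0.98 for the ribosomal protein genes (0.87 to 1.09), 0.58 for the synthetases (0.42 to 0.75) and 0.89 for CCT (0.58 to 1.21). These comparisons describe lists and were not tested.

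**Figure D3:**
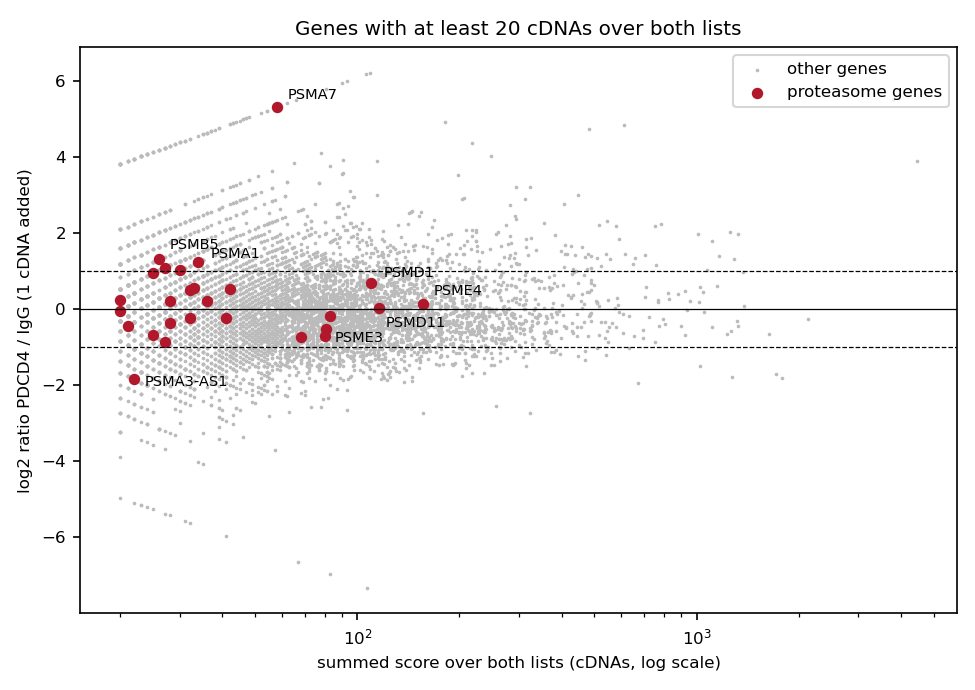
Log2 ratio of PDCD4 to IgG (1 cDNA added to each sum) against the summed score over both lists on a log scale, for the 7305 genes with at least 20 cDNAs (grey) and the 27 proteasome genes among them (red), with dashed lines at a 2-fold ratio. Proteasome genes lie within the cloud of other genes, and PSMA7 lies at 5.31 on the line of genes with no IgG site.

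Where the sites lay differed between PDCD4 and IgG more than the share of each list that the genes held. Sites were assigned to regions of GENCODE release 44 with coding sequence taken first, then 3′UTR, 5′UTR, non-coding exon and intron. Coding sequence held 33.6% (29 to 38.5) of the PDCD4 sites in proteasome genes and 14.9% (10.9 to 20.1) of the IgG sites, intervals that did not overlap. With UTRs taken before coding sequence these shares were 14.1% and 9.21%, and their intervals overlapped. Introns held 33.6% (29 to 38.5) and 52.6% (46.2 to 59.0). The 3′UTR share was similar, 21.9% and 23.2%. Across all protein-coding genes the coding share was 21.5% with PDCD4 and 10.0% with IgG, and the intronic share 50.6% and 67.4%, so that in this order of regions proteasome genes had more coding and fewer intronic sites in either list. With UTRs first, the coding share of all protein-coding genes was 15% with PDCD4, slightly above that of the proteasome genes, and 6.94% with IgG.

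**Figure D4:**
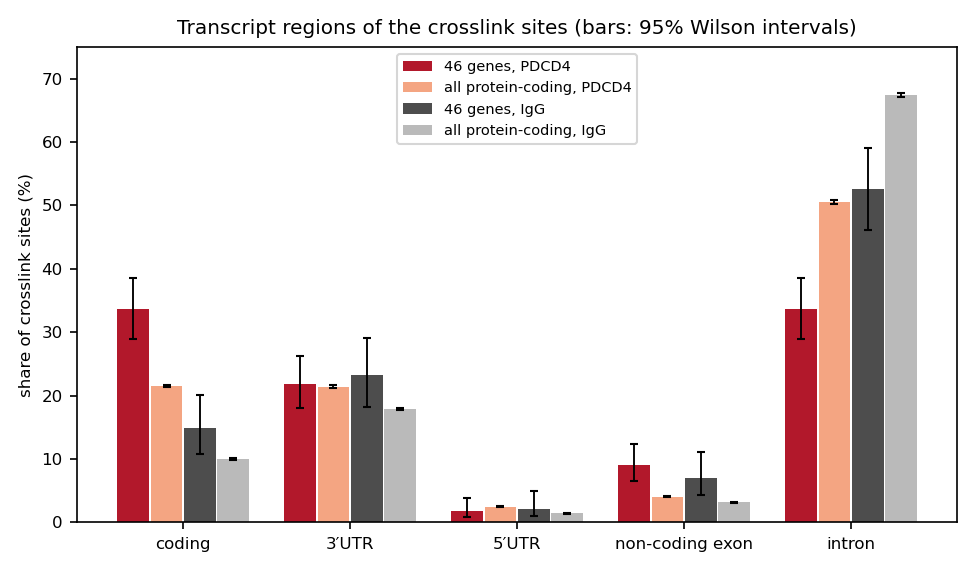
Share of crosslink sites in each transcript region for the 46 genes and for all protein-coding genes, in the PDCD4 and the IgG list, with bars for 95% Wilson intervals. The coding share of the 46 genes is 33.6% with PDCD4 and 14.9% with IgG, and the intronic share 33.6% and 52.6%.

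Expressed as signal, subunits and chaperones held 302 coding cDNAs with PDCD4 and 94 with IgG, a log2 ratio of 1.12, and 295 intronic cDNAs against 264, a log2 ratio of −0.41 (−0.65 to −0.16). The corresponding ratios of all protein-coding genes were 1.11 and −0.44, so the split by region was of about the same size in proteasome genes as in genes at large. The 3′UTR ratio was 0.04 (−0.29 to 0.38), against 0.22 over all protein-coding genes. Without PSMA7 the coding ratio was 0.95 (0.61 to 1.31). A coding site with PDCD4 was present in 31 of 40 subunits and chaperones (77.5%) and with IgG in 18 (45%), against 57.2% and 37.9% of all protein-coding genes with a site. The coding share of the list's cDNAs was higher with PDCD4 in 24 of the 40 (60%) and lower in 8 (20%), against 46.8% and 18.7% of all such genes. For introns, 17 were higher (42.5%) and 18 lower (45%), against 33.6% and 51.4%. Among the 26 with at least 20 cDNAs, 96.2% had a coding site with PDCD4 and 61.5% with IgG, against 76.6% and 53.9%. The coding share was higher with PDCD4 in 73.1% of them and lower in 23.1%, against 61% and 22.8%.

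By role, coding signal was most above IgG in the α subunits, with 61 and 7 cDNAs (2.56, 1.43 to 3.93), and without PSMA7 with 29 and 7 (1.48, 0.26 to 2.92). It was 70 and 24 in the β subunits (0.98, 0.29 to 1.71) and 59 and 16 in the non-ATPase base subunits (1.31, 0.50 to 2.21). In the lid, 41 and 15 coding cDNAs gave an interval that just reached 0 (0.88, −0.00 to 1.84), and in the activators 33 and 20 gave one that held it (0.15, −0.69 to 1.03).

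Along the coding sequence of the MANE Select mRNA, divided into 3 equal parts, the 125 PDCD4 sites leaned to the end and the 32 IgG sites to the start. The last part held 43.2% (34.8 to 52.0) of the PDCD4 sites and 25% (13.3 to 42.1) of the IgG sites, and the first part 28% (20.9 to 36.4) and 59.4% (42.3 to 74.5). Without PSMA7 the last part held 36.9% (28.5 to 46.2) of the PDCD4 sites, while over all protein-coding genes the last part held 33.2% and 35.8%. The lean of the PDCD4 sites to the end therefore rested on PSMA7, and that of the IgG sites to the start on 19 sites.

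Within exons, the listed sites with PDCD4 were found after 3′ splice sites (3′SS) and rarely before 5′ splice sites (5′SS). In windows of 50 nt at exon ends, subunits and chaperones had 89 PDCD4 sites just after a 3′SS and 1 just before a 5′SS. Divided by the number of positions in each window, the log2 ratio was 6.56 (4.04 to 11.9). The IgG sites, 21 and 4, gave 2.47 (0.91 to 4.48). All protein-coding genes gave 3.01 with PDCD4 and 2.45 with IgG, so IgG sites leaned the same way. With PDCD4, the interval of the proteasome genes lay above the value of all genes, but it rests on a single site before a 5′SS. It also treats each 1-nt site as independent, whereas some sites adjoin, as in PSMA7, so it may be too narrow. The difference from all genes was not tested. Positions of short exons that fell in both windows had been left out, among them that of the highest PSMB6 site. With these kept, 92 and 4 PDCD4 sites gave 4.59 (3.18 to 6.49), against 2.77 over all protein-coding genes. On the MANE Select mRNAs alone, 85 of the 203 PDCD4 sites in exons after the first lay under 50 nt after the exon start. Of the 96 in exons before the last, 3 lay under 50 nt before the exon end. Windows of 100 nt, with 69 and 5 sites, gave 3.96 (2.67 to 5.62), with no value of all genes taken at that width. Leaving out PSMA7 gave 6.38 from 79 and 1 sites in windows of 50 nt. By the MANE Select mRNA, 20 PDCD4 sites lay within the first 10 nt of an exon, 5 of them in PSMA7. Of the 96 PDCD4 sites in exons before the last, the nearest to an exon end was at 29 nt. Among the 34 IgG sites in such exons it was at 18 nt. Whether cDNAs that run across a splice junction were mapped as fully as others was not tested, so the ratios describe listed sites only.

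**Figure D5:**
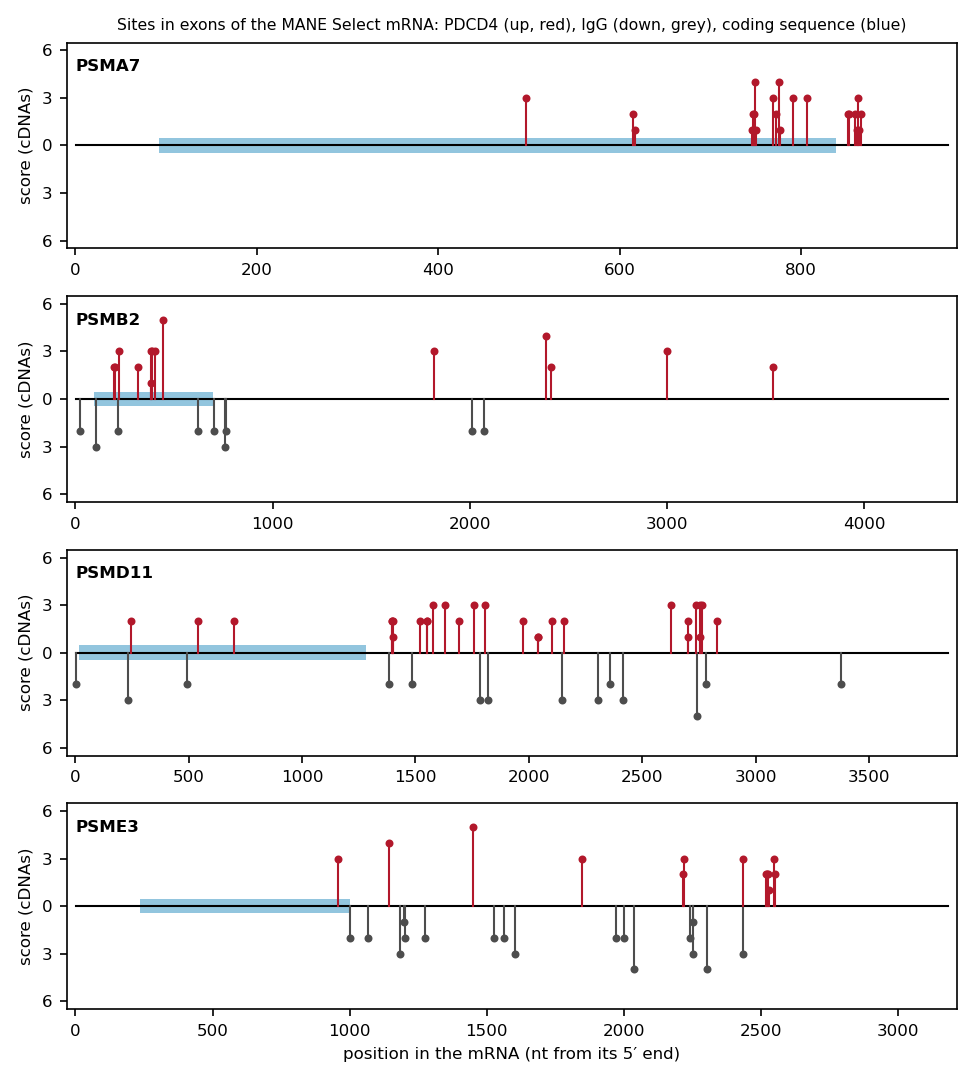
Crosslink sites along the MANE Select mRNA of PSMA7, PSMB2, PSMD11 and PSME3, with the score of each PDCD4 site drawn upwards and of each IgG site downwards against the distance in nt from the 5′ end of the mRNA, and the coding sequence in blue; intronic sites are not drawn. PSMA7 has no IgG site and its PDCD4 sites gather in the last exon, whereas in the 3′UTR of PSMD11 and PSME3 sites of both lists lie along the same stretch.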

How the data were processed

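Crosslink sites of 2 PDCD4 and 2 IgG iCLIP samples of MCF10A cells were analysed. The authors mapped single-end reads to the Ensembl genome (release 88, GRCh38) with iCount, subtracted IgG crosslink sites from the PDCD4 replicates, merged the latter and called peaks; the lists of both immunoprecipitations pool their replicates. The deposited score counts the cDNAs of each 1-nt site, without normalization, and the lists keep sites that passed a false discovery rate filter. The further filter of the methods, a score greater than 5, is not applied in them. How reads were aligned and cDNAs collapsed is not given in the sources used here, and sites in repeated sequence may be assigned to a gene or to its copies.

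Gene values were sums of scores over all sites whose label holds the gene, per 10000 cDNAs of the list. Log2 ratios of single genes had 1 cDNA added, intervals were exact conditional binomial, and shares had Wilson intervals, all at the 95% level. Genes with at least 20 cDNAs over both lists were called at a 2-fold ratio. All 46 genes were matched by Ensembl identifier to GENCODE 44, a later annotation of the same build, and positions that lay in both kinds of 50-nt window at exon ends were left out. PSMD5-AS1 has another symbol there, CUTALP, and is classed as a transcribed unitary pseudogene.

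The members and gene lists were chosen with earlier results of these data known. Genes named were the 12 with the largest PDCD4 sums, the 5 highest and the 5 lowest ratios, PSMA7, PSMB6, the pairs of constitutive and immunoproteasome subunits, genes without a site and genes that are not subunits; further members are given where they complete a role group, and pathway genes where they passed the 2-fold call. NFE2L1 and other genes outside this rule were chosen with their values in view. Alternatives changed the score minimum, the quantity summed, totals, labels, regions, transcripts, windows and the added cDNAs. Ratios, intervals and windows were tested on simulated data. Python 3.11.15 was used with numpy 2.4.6, scipy 1.17.1 and matplotlib 3.10.9.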

Additional observations from a re-analysis of the deposited data

How the results depend on the processing

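No paired analysis was possible because the deposited lists pool the replicates, and for the same reason no replicate could be left out. The summed log2 ratio of 0.12 and the median of 0.08 moved with the regions used, to 0.53 and 0.64 over exonic sites and to −0.45 and −0.57 over intronic sites, and the sums of all genes moved likewise, to 0.59 and −0.43. With scores greater than 5, each list kept 1 site, so that both ratios became −0.57. Over all genes the summed ratio was then 1.33 and the median 2.24. The coding share of the proteasome genes became 100% and the intronic share 0% in either list, and none of these genes reached the depth of a call. PSMA7 alone carried part of the sum: without it the summed ratio was 0.02 and the median 0.03. The count of 5 of 27 genes at least 2-fold higher became 1 of 27 with 5 cDNAs added (11.2% of all genes), 1 of 8 with numbers of sites (12.2%), 1 of 8 at a minimum of 50 cDNAs (13.6%), 0 of 8 over intronic sites (9.12%), 7 of 15 over exonic sites (32.8%) and 6 of 24 over sites of 1 genome match (16.4%). The count of 1 of 27 genes at least 2-fold lower became 0 of 8 with numbers of sites (11.1% of all genes). At a minimum of 50 cDNAs it was also 0 of 8 (12.7%). It was 0 of 24 without sites of several labels (16%), over subunits and activators (16.1%) and over sites of 1 genome match (16.1%). It rose to 2 of 32 at a minimum of 10 cDNAs (18.1%) and to 3 of 8 over intronic sites (29.6%). The alternatives without PSMA7, of 1 genome match and of all window positions were chosen after seeing the data. Taking UTRs before coding sequence gave coding shares of 14.1% (PDCD4) and 9.21% (IgG), with overlapping intervals, and 1 transcript per gene gave intronic shares of 42.1% and 61.8%. Windows of 100 nt gave a splice-site ratio of 3.96, and windows of 25 nt gave none because no site lay before a 5′SS. Of 176 alternative values of single named genes, 16 had the opposite sign. Over intronic sites these were the called genes PSMA1 (−0.57, from 2 cDNAs in each list) and PSMA4 (−2.89, from 0 and 4), and PSMC6 (−0.98), PSMD1 (−0.21), PSMD11 (−0.15), PSMD12 (−1.98), PSMD6 (1.75) and PSME3 (1.43), which were not called. Over exonic sites they were PSMB7 (2.60), PSMD14 (0.75) and PSMB2, with 5 cDNAs added PSMB6, PSMB10 and PSMD11, with scores greater than 1 PSMD11, and over sites of 1 genome match PSMC6 (−0.12). The causes of these changes were not tested. Depth limits all single genes: 19 of the 46 had fewer than 20 cDNAs over both lists.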
